A study of Helianthus annuus with 24 samples.

Results

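The enzymes that split sucrose at the cell wall and in the vacuole, together with the fructan enzymes related to them, were followed across sunflower (Helianthus annuus) nectary and leaf. A contig was taken when its Arabidopsis match in the deposited table was AT3G52600, AT1G55120 or AT1G62660, or when its UniRef description held "fructosyltransferase", "fructan" or "beta-fructofuranosidase". This gave 11 of 42063 contigs. Of these, 1 matched AT3G52600 (cell wall invertase 2, CWINV2), 4 matched AT1G55120 (called beta-fructofuranosidase 5 in the Arabidopsis column and CWINV3 in UniRef) and 6 matched AT1G62660, a vacuolar invertase of glycosyl hydrolase family 32. The UniRef text also picked 4 of the 11 and added none.

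Invertases split sucrose into glucose and fructose. The cell wall forms act outside the cell, where they keep sucrose low and so keep up its outward gradient, and in Arabidopsis a cell wall invertase is needed for nectar to form. AT1G55120 is an exception in name, since the Arabidopsis protein was found to break down fructans rather than sucrose. In the daisy family, to which sunflower belongs, enzymes derived from vacuolar invertases build fructans of the inulin type, so a match to a vacuolar invertase does not settle which reaction a sunflower protein carries out.

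The data were 24 libraries, 3 in each of 8 groups, 21 of them from nectaries of 7 lines. Of these lines, 6 were interspecific crosses of Helianthus annuus with low (412 and 441), medium (452 and 456) or high (434 and 467) nectar production, and the other, ER, was a maintainer line with no nectar class. About 50 nectaries from mature, secreting florets of different plants were pooled per library, and all were taken 4 to 8 h after dawn from plants about 40 days old kept at 23 °C with 16 h of light. The sample labels assign leaf to line 434, but the text of the series says that leaf came from ER, so leaf was compared with every nectary line.

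Values are the deposited upper-quartile-normalized values. They carry no correction for contig length, so levels of different contigs cannot be ranked against each other, and contigs of the same match may be pieces or copies of 1 gene that share reads. Estimated depths were 8.45 to 16.09 M reads per library, 1 read was worth 0.678 to 1.5 units, and 3 reads, the limit that a count of 0 allows, came to 2.03 to 4.5 units. Differences are on the scale of log2(value + 1), which understates the change of scarce contigs, and "called" means a limma p under 0.05 after Benjamini-Hochberg adjustment over all contigs tested. The mean correlation of a library with the others of its group was 0.949 to 0.966 in 20 libraries. It was 0.808, 0.856 and 0.871 in line 452 and 0.925 in replicate 2 of line 456, so these 4 libraries stood apart. The green leaf and floral nectary markers followed the tissue labels. Summed values of 12 green leaf contigs were 413082 to 636215 in leaf and 95 to 1528 in nectary, and those of 3 floral nectary contigs (CRC and SWEET9) were 117 to 148 in leaf and 26524 to 224460 in nectary. In bulk tissue, fewer cells of a type and less RNA per cell cannot be told apart.

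Nectary and leaf used different contigs of this group. In the nectary of line 434 against leaf, 5 of the 11 contigs were higher, 5 were lower and 1 was not called, while 61.6% of all 39981 contigs tested were called (39.6% higher and 22% lower). The median difference over the 11 was 0.58, beside 0.48 over all contigs. The 5 higher were CWINV2, 2 of the 4 AT1G55120 contigs and 2 of the 6 AT1G62660 contigs. The 5 lower were 1 AT1G55120 contig and the other 4 AT1G62660 contigs, so both matches were divided between the tissues.

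CWINV2 (Helianthus23193) stood at 74, 52 and 49 in the 3 leaf libraries and at 197054, 175180 and 188164 in those of the line 434 nectary. The nectary libraries of all 7 lines, from 4692 upwards, lay above every leaf library. The difference between line 434 and leaf was 11.64 ± 0.35 (SE; limma adjusted p = 5.36e-16), and the line with the smallest difference, 456, still differed from leaf by 6.80.

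Among the 4 AT1G55120 contigs, 2 belonged to the nectary. Helianthus32544, whose UniRef match is the insoluble isoenzyme CWINV3, was at 22, 105 and 72 in leaf and at 10150, 9510 and 10612 in line 434 (difference 7.49 ± 0.66, limma adjusted p = 7.11e-09). Helianthus40841, whose UniRef match is uncharacterized, was at 25, 17 and 18 in leaf and at 1915, 1835 and 1627 in line 434 (difference 6.43 ± 0.15, limma adjusted p = 2.99e-17). Both were above every leaf library in all 21 nectary libraries.

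Another contig of this match went the other way. Helianthus37004, with the same UniRef match as Helianthus32544, was at 983, 1070 and 754 in leaf and at 55, 107 and 167 in line 434. It was lower in all 21 nectary libraries, which reached 338 at most, and the difference for line 434 was -3.20 ± 0.29 (SE; limma adjusted p = 1.26e-08).

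The last of them, Helianthus37710, matches a UniRef fragment named cell wall invertase 3-1. It stood at 63, 30 and 41 in leaf and at 97, 54 and 51 in line 434, where the groups overlapped and the contig was not called (difference 0.58, 95% interval -0.95 to 2.11, limma adjusted p = 0.505). It was called higher than leaf in 5 of the other 6 lines but not in line 467, the other high line (difference 1.28, limma adjusted p = 0.131).

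**Figure D1:**
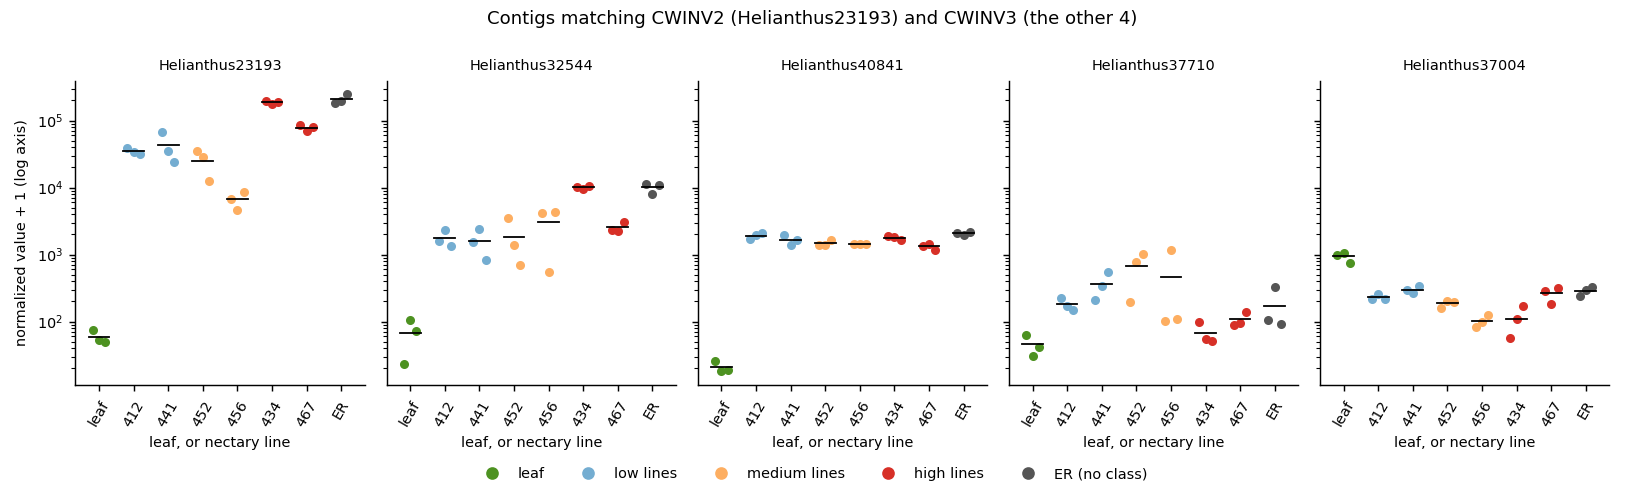
Normalized value + 1 (log axis) of the CWINV2 contig and the 4 AT1G55120 contigs in leaf and in the nectary of each line; points are libraries, bars are means of 3, and colours are nectar classes. CWINV2 spans 4692 to 245946 among nectaries, Helianthus40841 stays between 1173 and 2187, and Helianthus37004 is the 1 contig of the 5 that is highest in leaf.

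The vacuolar matches were divided in the same way. Helianthus13134, whose UniRef match is a 2,1-fructan:2,1-fructan 1-fructosyltransferase, an enzyme that lengthens inulin chains, stood at 55, 64 and 16 in leaf and at 4979, 5346 and 6432 in line 434 (difference 7.13 ± 0.37, limma adjusted p = 2.19e-12). Helianthus42157, which also matches AT1G62660 but a rice protein of no named function in UniRef, was at 2, 2 and 1 in leaf, an estimated 5 reads in all, and at 5227, 4292 and 6178 in line 434. The ratio of its means was 3139, with a 95% counting interval of 1345 to 9669 from the leaf reads. In line 441, the line of lowest arithmetic mean, the ratio was 453.6 (194.4 to 1397). These intervals cover counting error only. No nectary library overlapped leaf for either contig.

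The other 4 vacuolar matches, Helianthus21983, Helianthus21984, Helianthus21985 and Helianthus21987, carry nearby contig numbers and were all higher in leaf than in each of the 21 nectary libraries. Helianthus21984 stood at 1558, 1375 and 1505 in leaf and at 62, 47 and 93 in line 434 (difference -4.49 ± 0.68, limma adjusted p = 1.06e-05). Helianthus21985, whose UniRef match is a vacuolar invertase, stood at 381, 275 and 426 in leaf. In nectary it was at 0 in 19 of 21 libraries and at 2 at most. In the 5 lines whose libraries were all at 0, leaf was at least 100.1-fold to at least 158.5-fold higher, taking 3 reads per library as the limit. Helianthus21983 stood at 133, 76 and 135 in leaf and was also at 0 in 19 of 21 nectary libraries, and leaf was at least 29.59-fold to at least 46.28-fold higher than the 5 lines at 0.

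Helianthus21987, a UniRef beta-fructofuranosidase fragment, stood at 159, 96 and 90 in leaf and at 20, 23 and 26 in line 434. Its difference was -2.23 ± 0.76 (SE; limma adjusted p = 0.0155), and the call was lost without replicate 1 of leaf (difference -1.98, adjusted p = 0.0557). The contig was tested only because leaf lifted its mean over the 24 libraries to 19.83, beside a nectary mean of 6.24. The filter thus favoured this direction, and the p-value is no support for it. In the other nectary lines it was at 9 or below, with 6 libraries at 0.

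**Figure D2:**
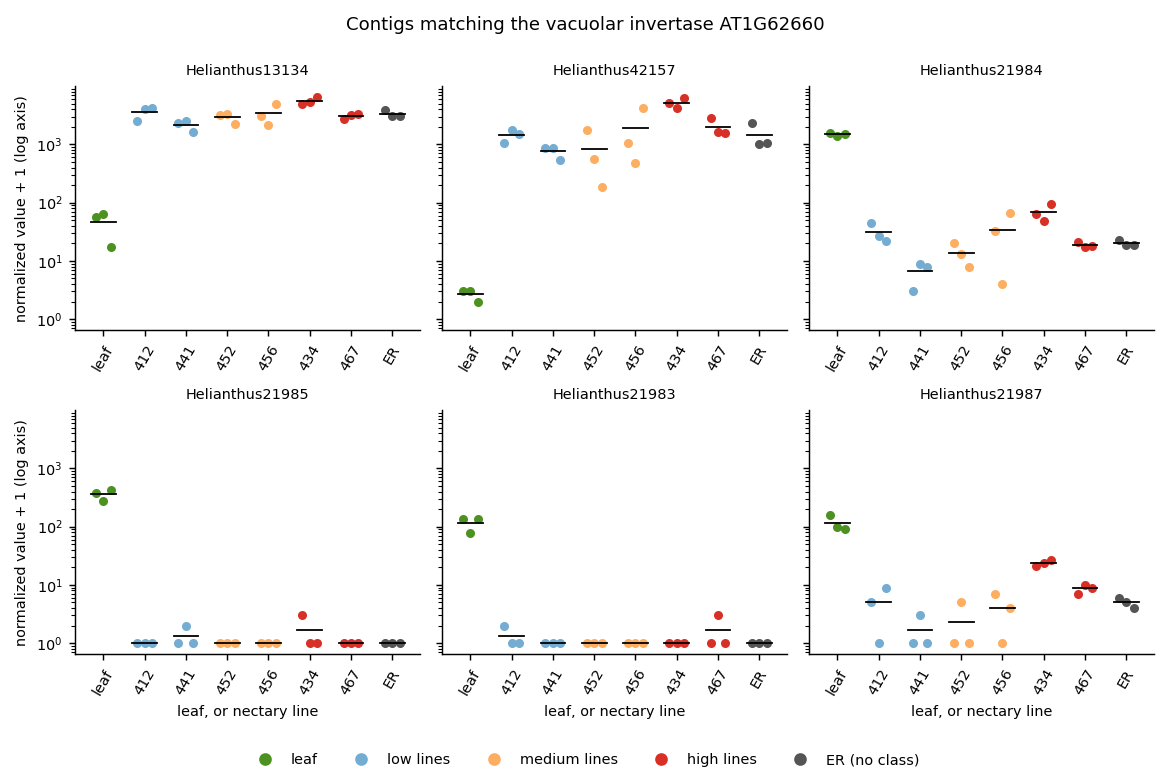
Normalized value + 1 (log axis) of the 6 AT1G62660 contigs in leaf and in the nectary of each line; points are libraries, bars are means of 3, and colours are nectar classes. The first 2 panels, Helianthus13134 and Helianthus42157, are high in nectary and low in leaf, and the other 4 are the reverse.

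The same division held in the other lines against the same 3 leaf libraries. In 412, 441, 452, 456 and ER, 6 contigs were higher and 5 lower, and in 467, 5 were higher, 5 lower and 1 was not called. Of all contigs, 60.9% were called in 412 (40.7% higher and 20.2% lower), 64.2% in 441 (41.9% and 22.4%), 52.3% in 452 (31.1% and 21.1%), 57.2% in 456 (36.3% and 20.9%), 65.3% in 467 (41.3% and 24%) and 66.1% in ER (41.1% and 24.9%). These comparisons share their leaf libraries and are not independent. Their counts also include Helianthus21983, Helianthus21985, Helianthus21987 and Helianthus42157, whose direction the filter nearly fixed.

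Summed over the contigs of a match, which removes any splitting of reads within it, AT1G55120 was at 1067 ± 170 in leaf and 12060 ± 494.6 in line 434 (SD, n = 3 each; difference 3.51 ± 0.20, limma adjusted p = 7.46e-12). The AT1G62660 sum was at 2116 ± 205.9 in leaf and 10910 ± 1603 in line 434 (difference 2.36 ± 0.34, limma adjusted p = 3.18e-06). In the low line 441 the AT1G62660 sum was 2921 ± 634.6, the nearest to leaf among the 7 lines.

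Among nectaries, 8 of the 11 contigs passed the filter of a mean of at least 10, and all 8 differed among the 7 lines by the moderated F test, as did 50.6% of the 38457 contigs tested. Without replicate 3 of line 434 the number was 4. With each library left out in turn, 17466 to 25396 of all contigs were called. Helianthus21983, Helianthus21985 and Helianthus21987 did not pass the filter and were not tested there.

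CWINV2 had line means that differed 31-fold, the widest range among the 8 contigs tested. It stood at 183722, 193694 and 245946 in ER, at 197054, 175180 and 188164 in 434 and at 87252, 69306 and 78861 in 467. It was at 67684, 35379 and 24296 in 441 and at 38331, 34030 and 31534 in 412. In the medium lines it was at 34847, 28391 and 12445 in 452 and at 6844, 4692 and 8573 in 456.

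The order of its line means was therefore ER, 434, 467, 441, 412, 452 and 456. Neighbours differed between 434 and 467 (limma adjusted p = 0.0353) and between 452 and 456 (0.00219). They did not pass between ER and 434 (0.939), 467 and 441 (0.0696), 441 and 412 (0.922) or 412 and 452 (0.385). Of the 21 pairs of lines 16 were called, where 18.6% of all tests over the 21 pairs were called. The share was 10.4% for 434 against 467 and 11.6% for 452 against 456. Lines of the same class thus differed in both the high and the medium class.

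The CWINV3 match Helianthus32544 was also highest in ER and 434. It stood at 11258, 8033 and 10993 in ER and at 10150, 9510 and 10612 in 434, and these 2 lines did not differ beyond their spread (limma adjusted p = 0.9997, difference -0.014). The remaining lines lay lower, at 2329, 2236 and 3104 in 467, 1592, 2302 and 1360 in 412, and 1537, 2389 and 838 in 441. The medium lines were uneven, at 3465, 1410 and 694 in 452 and at 4223, 554 and 4280 in 456, and 434 differed from its next neighbour, 456 (adjusted p = 0.0156).

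The other nectary contig of that match, Helianthus40841, was nearly level. Its 21 values ran from 1173 to 2187, with line means that differed 1.58-fold between ER (2095) and 467 (1324). For it 5 pairs of lines were called, 3 of them between ER and a lower line, and none between neighbours in the order.

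The fructosyltransferase match Helianthus13134 differed 2.59-fold between its highest line, 434, and its lowest, 441. Its values were 2517, 4096 and 4182 in 412, 2304, 2507 and 1663 in 441, 3136, 3353 and 2230 in 452, 3090, 2145 and 4949 in 456, 2769, 3228 and 3324 in 467, and 3908, 3024 and 3026 in ER. Line 434, at 4979, 5346 and 6432, stood above every other library. It was called against 441, 452 and 456, pairs in which 23.6%, 34.5% and 22.7% of all contigs were called.

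Helianthus42157 also had its highest arithmetic line mean in 434 and its lowest in 441, with a 6.92-fold difference between them. Its lowest library, at 186, was in 452, which lay below 441 on the log2 scale (7.76 and 8.14 above leaf). It stood at 860, 878 and 530 in 441, 1072, 1788 and 1532 in 412, 2878, 1645 and 1555 in 467, and 2322, 1025 and 1051 in ER. The medium lines were again uneven, at 1756, 555 and 186 in 452 and 1060, 469 and 4162 in 456. It too was called only for 434 against 441, 452 and 456.

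Helianthus37710 had nearly the reverse order, with 434 lowest and 452 highest. It stood at 97, 54 and 51 in 434, 89, 95 and 137 in 467, 222, 172 and 148 in 412 and 211, 334 and 556 in 441. In 452 it was at 195, 785 and 1017, in 456 at 102, 1160 and 108, and in ER at 103, 323 and 92. In each of 456 and ER, replicate 2 stood well above the other 2 libraries.

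The leaf contig Helianthus37004 was lowest in 456 (81, 96 and 124) and 434 (55, 107 and 167). It stood at 298, 263 and 338 in 441, 240, 296 and 325 in ER, 284, 181 and 321 in 467, 214, 253 and 220 in 412 and 157, 205 and 196 in 452. For it 9 pairs of lines were called, all with 434 or 456 on the lower side.

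The nectar classes ask whether these contigs differ with nectar production. Between high and low lines 5 of the 8 contigs tested were higher, 2 were lower and 1 was not called, while 31.2% of all contigs were called (12.3% higher and 18.9% lower). The median difference was 1.00 over the 8 and -0.0083 over all contigs. CWINV2 was at 132600 ± 60010 in the high lines and 38540 ± 15040 in the low lines (SD, n = 6 each), and the classes did not overlap (69306 to 197054 against 24296 to 67684). The difference was 1.72 ± 0.26 (SE; limma adjusted p = 6.08e-05). Summed markers of other tissues lay in overlapping ranges that reached higher in the low lines. Summed pollen and tapetum contigs were at 1331 to 3529 in the low and 1197 to 1728 in the high libraries, green leaf contigs at 354 to 822 and 95 to 554, and phloem contigs at 12276 to 18770 and 11970 to 15715. Single contigs did not all follow these sums. ANX2 Helianthus29498 ran the other way, at 258, 272 and 185 in 434 and 476, 437 and 451 in 467. It was at 16, 21 and 27 in 412 and 20, 19 and 17 in 441. ANX1 Helianthus16265 was at 353, 334 and 258 in 412 but at 2, 1 and 1 in 441. The part of these markers in the differences was not tested.

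Helianthus32544 differed by 1.68 ± 0.44 (limma adjusted p = 0.00739) and Helianthus42157 by 1.63 ± 0.49 (0.0165), in both cases with overlap of the classes. The fructosyltransferase match Helianthus13134 differed by 0.60 ± 0.19 (0.0213). The leaf-type Helianthus21984, at 16 to 93 in the high lines and 2 to 43 in the low lines, differed by 1.39 ± 0.51 (0.0460). Its values were 62, 47 and 93 in 434 but 20, 16 and 17 in 467, and 43, 26 and 21 in 412 but 2, 8 and 7 in 441, so that the high line 467 lay below the low line 412. In all 3 of Helianthus32544, Helianthus42157 and Helianthus13134, line 434 had the higher mean of the 2 high lines (10090 and 2556, 5232 and 2026, 5586 and 3107).

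Helianthus37710 was lower in the high lines, at 51 to 137 against 148 to 556 with no overlap (difference -1.57 ± 0.54, limma adjusted p = 0.0343). Helianthus37004 was lower by -0.71 ± 0.22 (adjusted p = 0.0178). Helianthus40841 did not pass, with a difference of -0.21 and a 95% interval of -0.42 to -0.006 (adjusted p = 0.113).

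With the line as the unit, 2 lines against 2, none of the 8 was called (0 of 8; CWINV2 adjusted p = 0.298) and 300 contigs were called in all, so the calls above rest on the spread between pools within a line. The number called was 4 to 7 with 1 library left out in turn, and it was 4 without replicate 3 of 434, replicate 3 of 441 or replicate 2 of 467. Of all contigs, 10177 to 17302 were called in these fits. CWINV2, Helianthus32544 and Helianthus42157 kept their calls in each of the 21 fits. Helianthus21984 was called in 7 of 21 and Helianthus37710 in 13 (highest adjusted p = 0.122 without replicate 1 of 441 and 0.0887 without replicate 3 of 441). Helianthus13134 was not called without replicate 1 of 412 (adjusted p = 0.0677), replicate 3 of 434 (0.0549) or replicate 3 of 441 (0.0645), and Helianthus37004 not without replicate 2 of 467 (0.0537).

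**Figure D3:**
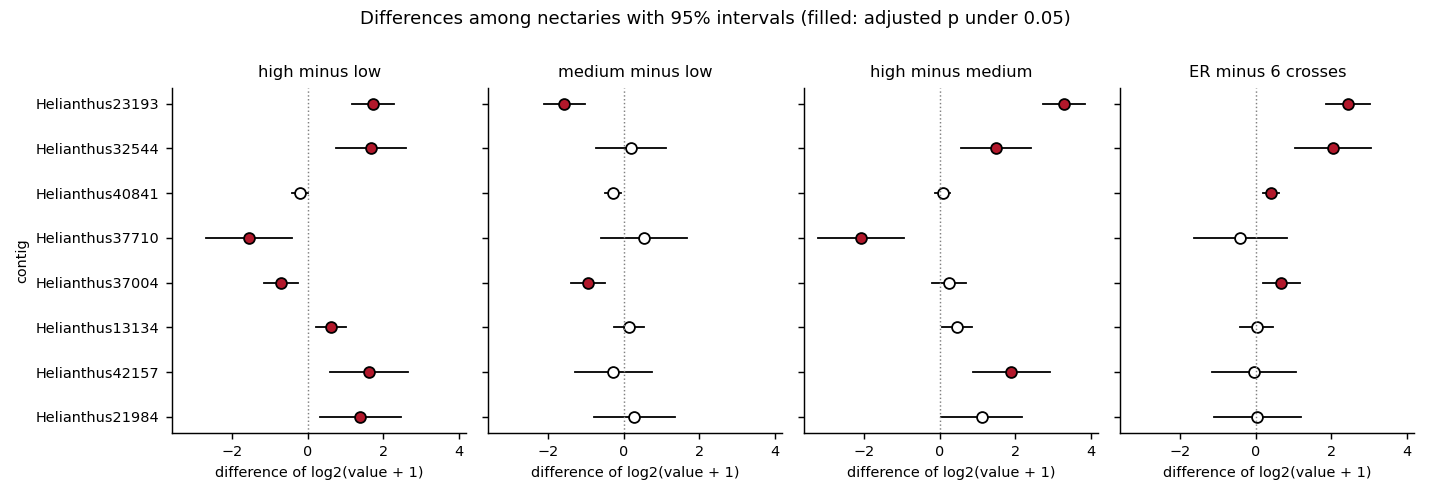
Differences of log2(value + 1) with 95% intervals for the 8 contigs tested among nectaries, in 4 comparisons; filled points had an adjusted p under 0.05. CWINV2 is filled in all 4 panels, to the left for medium minus low and to the right in the others.

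The mean of CWINV2 was lowest in the medium lines. Against the low lines 0 contigs were higher and 2 were lower, where 14.7% of all contigs were called (5.68% higher and 8.99% lower). CWINV2 was at 15970 ± 12560 in the medium lines (SD, n = 6) and differed by -1.58 ± 0.26 (limma adjusted p = 0.000282). Of the 2 medium lines, 456 was the lower (6703 against 25230), and 452 did not differ from 412 beyond the threshold (adjusted p = 0.385). Helianthus37004 differed by -0.94 ± 0.22 (adjusted p = 0.00527), with no overlap between the classes. When lines were the units, both calls were lost (adjusted p = 0.505 for CWINV2 and 0.556 for Helianthus37004).

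High against medium lines, 3 contigs were higher and 1 was lower, and 43.8% of all contigs were called (23.8% higher and 20% lower). CWINV2 differed by 3.30 ± 0.26 (limma adjusted p = 3.07e-08), Helianthus42157 by 1.90 ± 0.49 (0.00556) and Helianthus32544 by 1.49 ± 0.44 (0.0133). Helianthus37710 differed by -2.10 ± 0.54 (0.00562). When lines were the units none of these 4 was called (adjusted p = 0.0757, 0.144, 0.211 and 0.0966 in the same order). With line 452 left out, an alternative added after the data were seen, Helianthus37710 was no longer called (difference -1.50, adjusted p = 0.0527).

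ER, set against the mean of the 6 crosses, had 4 contigs higher and 0 lower, where 24.1% of all contigs were called (10.4% higher and 13.7% lower). CWINV2 differed by 2.45 ± 0.28 (limma adjusted p = 3.34e-06) and Helianthus32544 by 2.04 ± 0.48 (0.00408). Helianthus40841 differed by 0.40 ± 0.11 (0.00857) and Helianthus37004 by 0.68 ± 0.23 (0.0425). The last 2 were not called without replicate 3 of ER (adjusted p = 0.0637 and 0.205) or after rescaling by the median ratio (0.0766 and 0.0777), and Helianthus37004 was called in 10 of 21 fits with 1 library left out. Neither nectary-type vacuolar contig passed (Helianthus13134 difference 0.02, 95% interval -0.41 to 0.45; Helianthus42157 -0.05, -1.16 to 1.06).

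Summed over its contigs, the AT1G55120 match was higher in high than low lines by 0.84 ± 0.15 (limma adjusted p = 2.5e-04) and in ER than the crosses by 1.32 ± 0.16 (adjusted p = 1.05e-05). The AT1G62660 sum was higher in high than low lines by 0.98 ± 0.25 (adjusted p = 0.00507) and did not pass for ER (difference -0.05, adjusted p = 0.912). In both sums line 434 stood apart from the other high line. The AT1G55120 sum was 12060 in 434 but 4249 in 467, beside 4071 in 412 and 3929 in 441. The AT1G62660 sum was 10910 in 434 but 5159 in 467, beside 5097 in 412 and 2921 in 441.

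Other sucrose genes were read from lists of Arabidopsis genes. No contig matched the 5 other Arabidopsis cell wall and vacuolar invertases of the list, CWINV4 among them. The 1 contig for an invertase inhibitor was C/VIF1 (Helianthus12899), a small protein that blocks invertases. It stood at 252, 185 and 226 in leaf, 3311, 1537 and 1726 in 412, 6633, 3409 and 6655 in 441, and 1113, 5485 and 4810 in 452. It stood at 1409, 10096 and 2015 in 456, 1560, 209 and 670 in 434, 221, 958 and 357 in 467, and 296, 1908 and 375 in ER.

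C/VIF1 was lower in the high lines, at 662.5 ± 526.6 against 3878 ± 2278 in the low lines (SD, n = 6 each; difference -2.71 ± 0.62, limma adjusted p = 0.00253), with an overlap of 1560, the highest high library, and 1537, the lowest low library. It held its call with each library left out in turn but not when lines were the units (adjusted p = 0.0938). It was not called between line 434 and leaf.

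Of the 12 neutral invertase contigs, 4 were higher and 3 lower in line 434 than in leaf, and 2 were higher and 0 lower in high than low lines. Of all contigs 61.6% and 31.2% were called in these comparisons, so 7 of 12 and 2 of 12 were near or under that background. A/N-InvB (Helianthus33000) was at 585.3 ± 36.09 in line 434 and 76.33 ± 28.75 in leaf (SD, n = 3 each; difference 2.99 ± 0.45, limma adjusted p = 9.75e-06). In high against low lines it was at 523.3 ± 73.01 and 280.7 ± 63.54 (difference 0.92 ± 0.32, limma adjusted p = 0.0352). That call held in 10 of 21 fits with 1 library left out, with the highest adjusted p, 0.0831, without replicate 1 of 412, and was lost when lines were the units (adjusted p = 0.239).

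Hexokinases and fructokinases, which phosphorylate the sugars that invertases release, had 10 contigs. Of these 5 were higher and 1 lower in line 434 than in leaf, and 5 were higher and 0 lower in high than low lines, where the shares over all contigs were 61.6% and 31.2%. HXK2 (Helianthus17565) was at 628 ± 32 in line 434 and 105.7 ± 29.67 in leaf, and at 677.7 ± 60.83 in high and 237.8 ± 99.04 in low lines (difference 1.61 ± 0.27, limma adjusted p = 1.49e-04; 0.0879 when lines were the units). Contigs of this match differed. The 1 lower than leaf, Helianthus17580, also matches HXK2 (218 against 353, limma adjusted p = 0.00252). In high against low lines it was not called, nor were the HXK2 matches Helianthus17583 and Helianthus13447. Helianthus17563, Helianthus17564 and Helianthus17566 were called higher. Sucrose synthases and sucrose phosphate synthases had few contigs to set against the same shares. Both sucrose synthase contigs tested were higher than leaf and 1 was higher in high lines (SUS4, Helianthus24021, difference 2.70 ± 0.39). That call was kept in all 29 alternative fits, the line as the unit among them (highest adjusted p = 0.0244). Of 4 sucrose phosphate synthase contigs 1 was higher and 1 lower than leaf, and both match SPS1F. The higher was Helianthus37348 (195.7 ± 23.71 against 16.67 ± 7.23, limma adjusted p = 0.00379) and the lower Helianthus37347 (63 against 776.7, adjusted p = 1.42e-08). In high lines 1 was higher (SPS4F, Helianthus28575, difference 2.35 ± 0.33), a call lost when lines were the units (adjusted p = 0.208). Medium against low lines, 0 contigs were called in each of these lists by limma.

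Over the 21 nectary libraries, the contig whose log2 values ran most like those of Helianthus32544, among 11701 annotated contigs compared, was SWEET9 (Helianthus17324), the sucrose uniporter of nectaries, with a Pearson correlation of 0.964 and a Spearman correlation of 0.938. Libraries of a line share their genotype, so the 21 points are not independent. The correlation was 0.889 over the 15 libraries without 434 and ER, 0.954 without the 2 libraries farthest out, and 0.984 over the 7 line means. SWEET9 stood at 162565, 140176 and 197058 in ER and 148424, 127869 and 128978 in 434, and at 66552, 7069 and 62574 in 456, where replicate 2 was low for both contigs. The next contigs were a HAUS augmin-like subunit (Helianthus27276, 0.955) and a ubiquinol-cytochrome C chaperone family member (Helianthus706, 0.952).

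**Figure D4:**
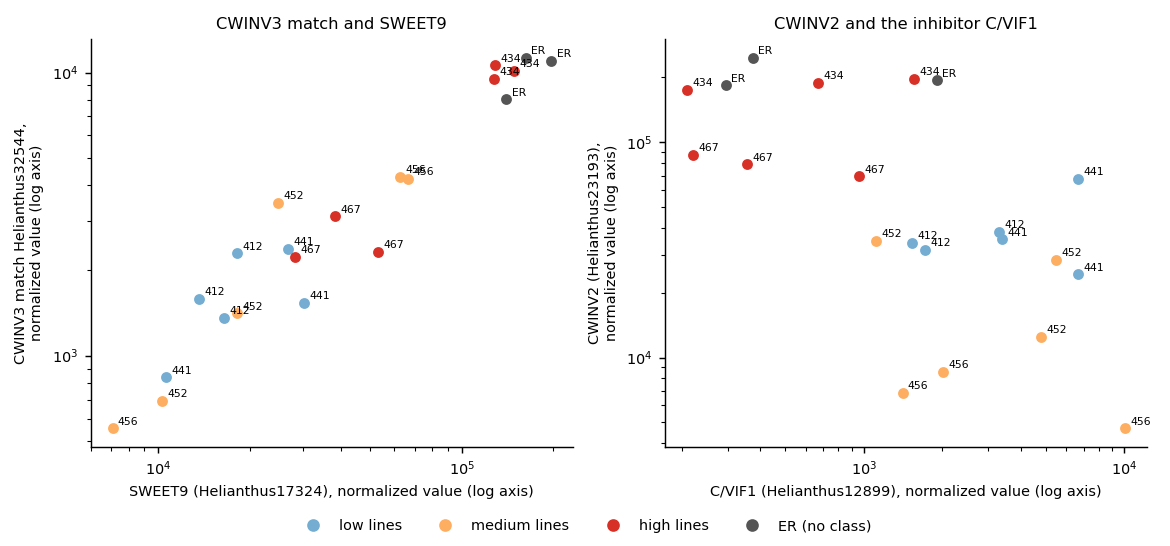
Left, CWINV3 match Helianthus32544 against SWEET9, and right, CWINV2 against the inhibitor C/VIF1, as normalized values on log axes in the 21 nectary libraries, labelled by line and coloured by nectar class. On the left the points follow 1 rising band from 456 replicate 2 (7069, 554) to ER; on the right, line 456 is low for CWINV2 (4692 to 8573) at low and high C/VIF1 (1409 to 10096).

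CWINV2 was most like Helianthus39157, a member of the plant invertase and pectin methylesterase inhibitor superfamily (correlation 0.949, and 0.950 over the 15 libraries without 434 and ER). The superfamily name does not settle whether this protein acts on invertases. Next came polyamine oxidase 2 (Helianthus19029, 0.944) and a protein of no named function (Helianthus33169, 0.943). Helianthus39157 was at 12410 in line 434 and 7.33 in leaf.

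Helianthus42157 ran most like a 2-oxoglutarate-dependent oxygenase (Helianthus14816, 0.940), a RING/U-box protein (Helianthus8128, 0.919) and a cytochrome P450 (Helianthus15810, 0.918). The fructosyltransferase match Helianthus13134 ran most like glutathione peroxidase 2 (Helianthus41808, 0.858), a pyruvate dehydrogenase subunit (Helianthus39229, 0.852) and a potassium transporter (Helianthus7254, 0.848). Helianthus40841, the level contig, had the weakest likeness, 0.800 with a phosphopantetheine adenylyltransferase (Helianthus17096), followed by an epidermal patterning factor-like protein (Helianthus7483, 0.781) and general regulatory factor 2 (Helianthus35910, 0.780).

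Among the 8 contigs themselves, Helianthus42157 and Helianthus13134 ran together (0.832) and Helianthus42157 and Helianthus37710 ran opposite (-0.871), over the same 21 libraries. CWINV2 and Helianthus32544 correlated at 0.721. Helianthus40841 correlated with none of the others beyond 0.46.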

How the data were processed

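Per the labels' protocols, 21 nectary and 3 leaf libraries were sequenced as 50-base paired ends (330 M reads reported). What the authors deposited is a whole-number score per contig after upper-quartile normalization, per the file headers. Only the header of replicate 3 of ER does not name the normalization. The upper quartile of its values above 0 was 201.25, beside 201 in the other libraries. For aligner, assembler and counter the sources used here name nothing. Group means and SDs (16 columns) were left unused. No contig sequence or length came with the table, so none is printed. Spacing of the low values gave the worth of 1 read (largest error 0.031% in 12 simulated libraries). In the deposited libraries the correlation of that fit ran from 0.415 (replicate 3 of ER) to 0.987 (replicate 3 of 434), and the error is not known. Values were not modelled as counts: log2(value + 1) of contigs with a mean of at least 10 was fitted with limma 3.58.1 in R 4.3.3, with 1 mean per group, trended moderated variances and Benjamini-Hochberg adjustment, on 24 libraries for leaf comparisons and 21 for the rest. Python 3.11.15, numpy 2.4.6, pandas 2.3.3 and matplotlib 3.10.9 read files and drew figures. The procedure was tested on simulated data. Libraries were pools of nectaries from different plants, so p-values measure the spread between pools.

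Members, lists and tests were chosen with earlier results of these data known. Every member is accounted for; those with a group mean of at least 100 are described by library. For members with a nectary mean of at least 1000, the 3 annotated contigs (nectary mean at least 100) of highest correlation are named, and from each list the called contig of largest change whose higher mean is at least 100. Alternatives were an added constant of 5, a minimum mean of 50 or none, rescaling by median ratio, a replicate block, the compared groups alone, the line as the unit, sums per match, line 452 left out and each library left out in turn. Marker lists were floral nectary, green leaf, pollen and tapetum, phloem and ovule genes. Summed values were 680 to 696 in leaf and 1053 to 4679 in nectary for 6 pollen and tapetum contigs (only ANX1 and ANX2 of 7 genes had a match), 9722 to 15640 and 8290 to 22736 for 7 phloem contigs, and 264 to 431 and 0 to 22 for the 1 ovule contig (STK of 2 genes); their part in the results was not tested.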

Additional observations from a re-analysis of the deposited data

Results flagged for a closer look

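There were 27 class groups of 6 libraries. Helianthus21987 in the low and medium lines, at 8 and 6 at most, was too scarce to be tested. Of the other groups, tested for a library far from the others, 2 were flagged, and chance flags about 1 in 20 groups. CWINV2 (Helianthus23193) was at 67684 in replicate 1 of line 441, while the other 5 low libraries were at 24296 to 38331. Helianthus40841 was at 1658 in replicate 3 of line 452, while the other 5 medium libraries were at 1376 to 1453. That library also had the lowest mean correlation with its group (0.808).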

How the results depend on the processing

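With lines as the units, 0 of the contigs were called for high against low, medium against low and high against medium lines, and 300, 4 and 605 of all contigs. Rescaling by median ratio left 2 calls for ER against the crosses. Summing contigs of a match leaves 3 matches, so counts fall by construction: 3 called for line 434 against leaf, 17 for the other lines against leaf, 3 for high against low, 1 for medium against low, 2 for ER, 31 over pairs of lines and 3 by the F test. With 1 library left out in turn, calls ran from 8 to 10 for line 434 against leaf, 57 to 65 for the other lines against leaf, 4 to 7 for high against low, 2 to 3 for medium against low, 4 to 6 for high against medium, 2 to 4 for ER (2 without its replicate 3), 43 to 65 over pairs of lines and 4 to 8 by the F test. Calls among all contigs moved too, from 21337 to 27446 for line 434 against leaf and 10177 to 17302 for high against low. They ran from 4319 to 8459 for medium against low, 14147 to 20336 for high against medium and 17466 to 25396 by the F test. Over all contigs, the groups alone gave 18292 calls in place of 11983 for high against low and 11074 in place of 16829 for high against medium. For medium against low lines, 5642 became 3421 at a mean of at least 50 and 9165 without line 452; for ER, 9253 became 5965 without its replicate 3 and up to 13292. Differences that were never called changed sign as follows. For ER, Helianthus21984 was -0.055 with a constant of 5, -0.0047 rescaled and -0.079 without line 452, Helianthus13134 was -0.033 rescaled and -0.016 without line 452, and Helianthus40841 in high against medium lines was -0.012 rescaled. Without line 452, medium minus low was -0.070 for Helianthus37710 and 0.31 for Helianthus42157. With 1 library left out, ER differences ran from -0.10 to 0.082 for Helianthus13134, -0.15 to 0.19 for Helianthus21984 and -0.44 to 0.15 for Helianthus42157. Medium minus low ran from -0.0083 to 0.29 for Helianthus13134, -0.14 to 0.87 for Helianthus21984, -0.11 to 0.68 for Helianthus32544, -0.048 to 0.89 for Helianthus37710 and -0.70 to 0.13 for Helianthus42157. The cause was not tested. Replicate numbers did not pair the samples: same-numbered libraries correlated at -0.29 to 0.26 (median 0.00063) after group means were removed. With a replicate block 1 call among these contigs was lost, Helianthus21984 in high against low lines (adjusted p = 0.0504). Contigs at a few reads, Helianthus21983, Helianthus21985 and Helianthus21987 in nectary, are at the limit of depth.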

Other observations

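Libraries of the same line differed from each other along a common direction, seen after the values were known. Over the 21 nectary libraries, each taken as its deviation from the mean of its line, Helianthus37710 and the inhibitor C/VIF1 (Helianthus12899) deviated together (correlation 0.773, and 0.711 over 20 libraries without replicate 2 of line 456). Helianthus37710 deviated opposite to SWEET9 (Helianthus17324; -0.852, and -0.649 without that library), Helianthus32544 (-0.852 and -0.674) and Helianthus42157 (-0.750 and -0.649). Helianthus32544 and SWEET9 deviated together (0.908 and 0.774). C/VIF1 followed the other contigs less closely, at -0.650 with Helianthus32544 (-0.508 without that library), -0.614 with SWEET9 (-0.455) and -0.560 with Helianthus42157 (-0.424). It was at -0.440 with Helianthus13134 (-0.247) and -0.302 with CWINV2 (-0.173). CWINV2 itself deviated together with SWEET9 (0.703, and 0.820 without that library) and Helianthus32544 (0.666 and 0.665). It deviated opposite to Helianthus37710 (-0.631 and -0.597). Helianthus40841 followed little, at -0.043 with Helianthus37710 and -0.078 with SWEET9, and was at -0.321 with Helianthus32544 (-0.448 without that library). Replicate 2 of line 456 was the far end of this direction: SWEET9 was at 7069 against 66552 and 62574 in the other 2 libraries of the line, Helianthus32544 at 554 against 4223 and 4280, Helianthus37710 at 1160 against 102 and 108, and C/VIF1 at 10096 against 1409 and 2015. CWINV2 was at 4692 against 6844 and 8573. This library also had the highest summed markers of other tissues among the nectary libraries, at 1528 for green leaf, 4679 for pollen and tapetum, and 22736 for phloem contigs, of which SUC2 (Helianthus38937) was at 15873 against 6473 and 4834. Their part in the pattern was not tested. Dissections ran over several days and 4 to 8 h after dawn, per the labels, but no label ties a library to a day or hour, so a relation to either could not be examined. These correlations describe libraries that share genotype within a line, and no test was made of them.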
